A study of Mus musculus with 4 samples.

Results

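Regions of open chromatin at microRNA (miRNA) genes were described in cultured epithelium of the mouse colon. They are the distinct called regions on chromosomes 1 to 19 with a summit within 1000 bp of an outer end of an annotated miRNA gene, and 345 of the 113404 regions of the series qualified. They belonged to 308 of the 1136 miRNA genes annotated on these chromosomes. The assay was bulk ATAC-seq, where Tn5 transposase places adapters mainly in open DNA. The material was colonic organoids, which are self-organising epithelial cultures, from mice labelled WT. The 4 groups were colitis organoids with 10 µM T-5224, a compound that inhibits AP-1 (the Fos and Jun transcription factors), colitis organoids with 0.1% DMSO, control organoids with 10 µM T-5224 and control organoids with 0.1% DMSO, each treated for 24 h. All were grown in the same Wnt, EGF, Noggin and R-spondin medium, and were frozen viably and thawed before nuclei were taken. Each group held 1 library, and the values used here are those of 1 peak list for the whole series. That list has no column per library, so nothing here separates colitis from control or T-5224 from DMSO. The sources used here do not give the age or number of the mice, nor the libraries that entered the peak call.

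A miRNA is cut from a hairpin in a longer primary transcript by Drosha and Dicer, and is then held by an Argonaute protein that it guides to messenger RNAs. Targets are recognised mostly through the seed, bases 2 to 8 of the mature strand, so miRNAs with the same seed share many targets. The hairpin can lie far from the start of its primary transcript, in an intron of a coding gene, in a noncoding host or close to a promoter, and a called summit near the hairpin is a property of that place and need not be the promoter of the miRNA. In gut epithelium the Mir200 family is known for restraining Zeb1 and Zeb2 and so keeping cells epithelial, Mir192, Mir194 and Mir215 are abundant gut miRNAs, and Mir21a and Mir31 are known to rise in inflamed or regenerating mucosa and in tumours.

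The mature strands of the epithelial genes are printed because their seeds show which of them can act on the same targets. They are given 5′ to 3′ with the seed in capitals, as annotated by RefSeq on GRCm38.p6.
miR-200b-3p: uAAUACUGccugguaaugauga
miR-200c-3p: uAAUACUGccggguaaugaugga
miR-429-3p: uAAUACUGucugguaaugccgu
miR-200a-3p: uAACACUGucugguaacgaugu
miR-141-3p: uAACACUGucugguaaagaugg
miR-192-5p: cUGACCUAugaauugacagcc
miR-215-5p: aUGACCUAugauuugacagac
miR-194-5p: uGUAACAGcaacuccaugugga
miR-21a-5p: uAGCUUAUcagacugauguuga
miR-31-5p: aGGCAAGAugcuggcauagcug
The Mir200 family thus holds 3 strands with the seed AAUACUG and 2 with the seed AACACUG, and each of the 2 genomic clusters of the family carries both seeds. Mir192 and Mir215 share 1 seed although they lie on chromosomes 19 and 1. Mir194-1 and Mir194-2 encode the same mature strand, on chromosome 1 beside Mir215 and on chromosome 19 beside Mir192. For contrast, strands of genes known from muscle and neurons are given in the same way.
miR-206-3p: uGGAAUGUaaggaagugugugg
miR-133b-3p: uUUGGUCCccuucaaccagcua
miR-132-3p: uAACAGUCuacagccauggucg
miR-212-3p: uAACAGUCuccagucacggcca
The neighbouring neuronal genes Mir132 and Mir212 share the seed AACAGUC.

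Values are the authors' fold enrichment at the strongest summit within 1000 bp of either outer end of a gene, a linear ratio to the expected background, and a gene without such a summit has the value 0. Intervals beside a fold are exact Poisson 95% intervals of the pileup behind it, and those beside a share are Wilson 95% intervals. Both cover counting error only. The depth of a library is unknown. The folds correspond to 1 background pileup of 7.63 throughout, and called summits of the series had pileups from 17 to 8197. No value has a replicate, genes are not replicates of a condition, and no test was made. Reads carry no molecular identifiers that the sources name, and copy number and mappability were not divided out. The label of the cultures was checked at the ends of marker genes. All 6 epithelial markers (Epcam, Cdh1, Krt8, Cdx1, Cdx2 and Vil1) had a summit, with 21.0 to 59.1-fold. Of 8 markers of leukocytes, fibroblasts, endothelium, neurons and muscle, 1 had one, the muscle gene Myod1 with 4.29-fold. Of all protein-coding genes 65.5% had a summit at an end, so a summit at a marker is not in itself particular to epithelium.

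Fewer miRNA genes than coding genes had open chromatin called at an end. Of all miRNA genes 27.1% had a summit (24.6 to 29.8%). On the same chromosomes the share was 37.0% of 12408 lncRNA genes and 65.5% of 20665 protein-coding genes. The ends of a hairpin lie close together, so their windows overlap and less sequence was searched than at longer genes. The part of this in the differences was not tested. Of annotated lncRNA starts, searched around the start alone, 30.6% had a summit within 1000 bp. When every miRNA gene was moved by 50 kb up or down its chromosome, 19.8% (17.6 to 22.2%) or 17.6% (15.5 to 19.9%) of the positions had one. Among the 308 genes with a summit the median was 6.55-fold (25th to 75th percentile, 3.59 to 22.0-fold). Over 19 chromosomes the share with a summit was 28.7% ± 8.53 (mean and SD).

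miRNA genes near an end of a coding gene mostly had open chromatin, and the others mostly did not. Of the 144 within 1000 bp of an outer end of a protein-coding gene 94 had a summit (65.3%, 57.2 to 72.6%), and the median of these was 23.2-fold. Of the other 992 genes 214 had one (21.6%, 19.1 to 24.2%), with a median of 4.93-fold. The first share is close to the 65.5% of coding genes themselves, so it says little about the miRNAs. When those 992 positions were moved by 50 kb up or down, 18.4% (16.2 to 21.0%) or 16.6% (14.4 to 19.1%) had a summit. The 21.6% was above both, and its interval overlaps that of the 18.4%. The moved positions were not kept away from coding ends, so they are not a like background. Their summits had medians of 6.26 and 6.72-fold, above the 4.93-fold. Shares also differed with whether an annotated coding start was found nearby. Where one lay within 1000 bp of the miRNA, 58 of 61 genes had a summit (95.1%, 86.5 to 98.3%). Where none was found, 34 of 79 had one (43.0%, 32.7 to 54.0%). Chromosome 18 is left out of this last comparison, because starts on it were not used here. Starts are also missing in places elsewhere, so for some of the 79 the kind of end is not known. An example is Mir1668 on chromosome 8, 633 bp from an end of Adgre5, with its nearest listed coding start 115330 bp away.

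**Figure D1:**
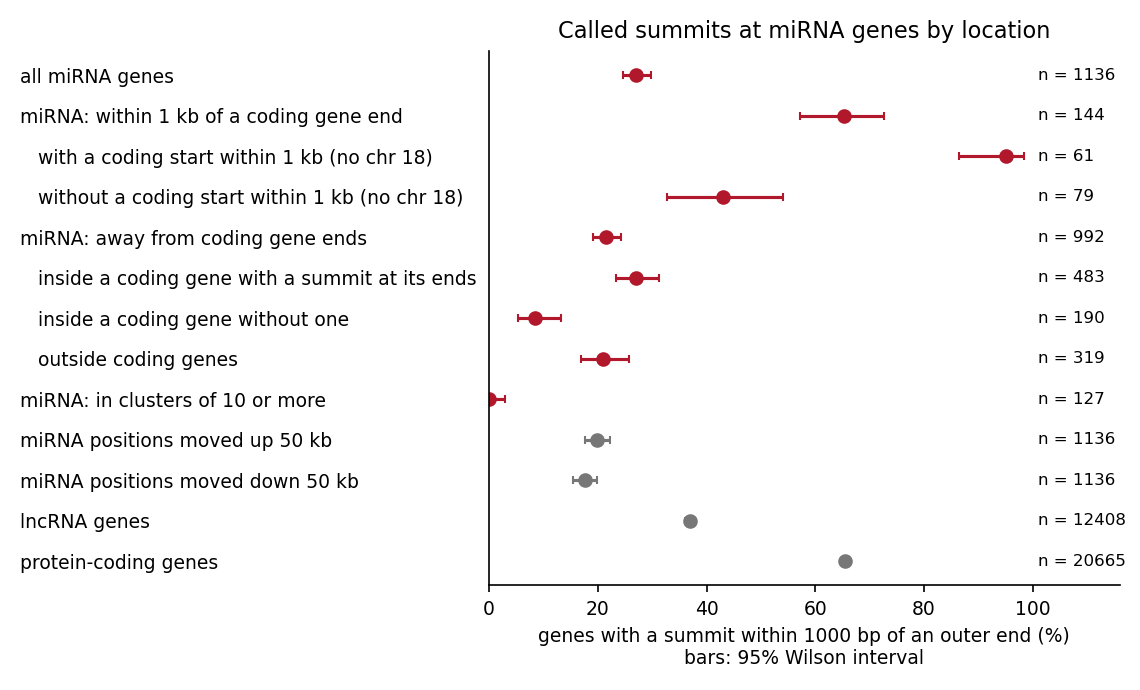
Share of genes with a called summit within 1000 bp of an outer end (x axis, %), for miRNA genes by location (red), for miRNA positions moved by 50 kb and for lncRNA and protein-coding genes (grey), with 95% Wilson intervals and the number of genes at the right. miRNA genes with a coding start within 1 kb reach 95.1%, those away from coding gene ends 21.6%, and clusters of 10 or more miRNA genes 0%. The interval of these clusters treats neighbours as separate genes and is too narrow.

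Many miRNA genes away from coding ends still lay inside a coding gene, and their share with a summit differed with the host. Inside a host with a summit at its own ends 131 of 483 miRNA genes had a summit (27.1%, 23.3 to 31.3%). Inside a host without one the count was 16 of 190 (8.42%, 5.25 to 13.2%). Outside coding genes it was 67 of 319 (21.0%, 16.9 to 25.8%). The second of these counts includes large clusters of miRNA genes, among them 72 neighbours inside Sfmbt2, none of which had a summit. Without clusters of 10 or more genes it was 16 of 103 (15.5%, 9.79 to 23.8%), an interval that overlaps that of hosts with a summit, and the count for those hosts stayed at 131 of 483. Leaving the clusters out was chosen after the data were seen. The length of the host was not matched.

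By region, with the strongest summit anywhere in it, the 345 fell into 104 at miRNA genes near a coding end and 241 at the others. The 104 had a median of 22.9-fold and a median width of 1548 bp, against 17.7-fold and 1218 bp for 15908 other regions at coding ends. The 241 had a median of 4.41-fold and 517 bp, against 4.64-fold and 453 bp for the 95027 autosomal regions that lay at neither kind of gene. Regions at miRNA genes away from coding ends were thus of ordinary strength in the middle of their distribution. In its upper part, 17.4% of the 241 reached 20-fold, against 8.41% of the 95027. Of the 241, 30 also had a summit at an end of a coding gene, because a wide region can reach both. The remaining 211 had a median of 4.06-fold, and 24 of them reached 20-fold (11.4%). None of the 345 exceeded 100-fold, and the highest reached 84.1-fold.

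**Figure D2:**
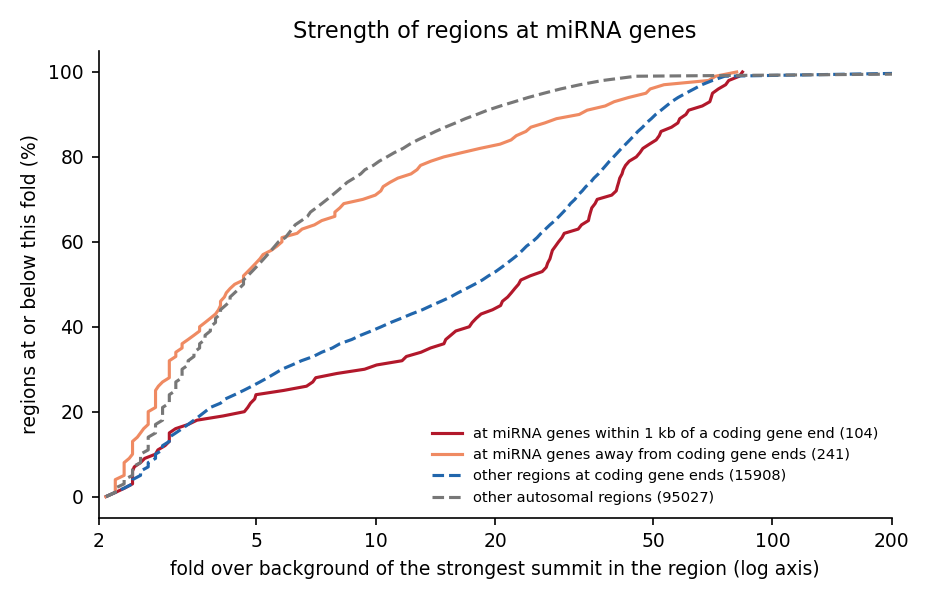
Cumulative share of regions (y axis, %) against the fold of the strongest summit in the region (x axis, log scale) for regions at miRNA genes near and away from coding gene ends (solid), other regions at coding gene ends and other autosomal regions (dashed). The curve of the 241 regions away from coding ends is to the left of that of the other autosomal regions at low folds and to its right in the upper part, while that of the 104 near coding ends has its median at 22.9-fold.

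Most regions, 319 of 345, served 1 miRNA gene, and 26 were shared by up to 4 neighbours in a cluster. Conversely, 62 of the 308 genes had more than 1 region. The strand of the hairpin was known for 290 of the 308 genes. The strongest summit lay upstream of the hairpin in 162 of them, inside it in 23 and downstream in 105. Near coding ends the counts were 60 upstream, 7 inside and 22 downstream, and away from them 102, 16 and 83. Of the genes closest to the 1000 bp limit, Mir6912 (994 bp, 2.32-fold) and Mir19a (984 bp, 3.01-fold) were just inside, and Mir126a (1004 bp, 2.20-fold) and Mir7085 (1005 bp, 3.01-fold) just outside.

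Genes of the epithelial list nearly all had a summit. It was found at 9 of 10 epithelial genes, at 2 of 12 muscle genes and at 8 of 20 neuron genes, against 27.1% of all miRNA genes. The medians were 18.7-fold for the epithelial list and 0 for the muscle and neuron lists, and also 0 over all miRNA genes. At least 20-fold was reached by 4 epithelial, 0 muscle and 3 neuron genes, against 7.66% of all miRNA genes. Neighbours share summits, so the 9 epithelial genes stand for 5 of 6 loci, the 2 muscle genes for 2 of 7 and the 8 neuron genes for 7 of 19. Position near a coding end, which goes with a summit in general, applied to 2 of the 10 epithelial, 0 of the 12 muscle and 2 of the 20 neuron genes. Its part in the difference was not tested.

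**Figure D3:**
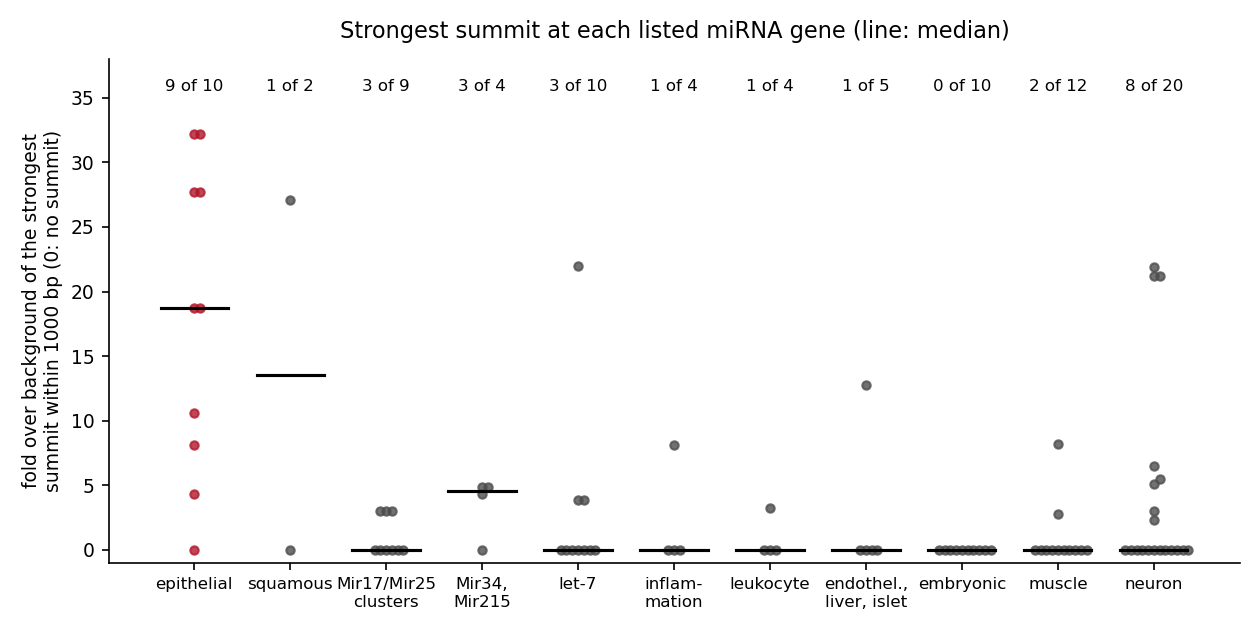
Fold of the strongest summit within 1000 bp of each listed miRNA gene (points, y axis, 0 without a summit) by list, with the median as a line and the number of genes with a summit above. The epithelial list (red) has its median at 18.7-fold, whereas the medians of the muscle and neuron lists are 0.

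The Mir194-2 and Mir192 genes had the highest value of the list. They lie on chromosome 19 (6264643 to 6264728 and 6264844 to 6264932), outside coding genes, and share a summit of 32.2-fold (28.6 to 36.2), 193 bp upstream of the pair. It belongs to a region of 4579 bp with 9 summits, which also has a summit within 1000 bp of an outer end of a coding gene, and of which the next strongest, 29.1-fold (25.6 to 32.9), lay 1430 bp upstream. No annotated coding or lncRNA start was within 11 kb, the closest being a lncRNA start 11646 bp from Mir192. The paired locus on chromosome 1, Mir194-1 (185313319 to 185313385) and Mir215, lies inside the table's bounds of Iars2, the gene of a mitochondrial isoleucyl-tRNA synthetase. Both genes there had only 4.29-fold (3.04 to 5.89) within 1000 bp. The strongest summit of that locus, 32.5-fold (28.8 to 36.5), fell outside the window, 1217 bp upstream of Mir194-1. The 2 loci that encode the same mature miR-194-5p therefore had strongest upstream summits of like height, with overlapping intervals.

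At both clusters of the Mir200 family a called region covered the hairpins. Mir200c and Mir141, on chromosome 6 (124718322 to 124718390 and 124717914 to 124717985), each had 27.7-fold (24.3 to 31.4), from 1 summit 529 bp upstream of the pair. The region spans 5119 bp with 9 summits. Mir141 is 969 bp from an outer end of Phb2, which encodes prohibitin 2, but that end is not a start: the nearest annotated coding start is 5625 bp away, and a summit of 50.1-fold (45.5 to 55.0) was called beside it, 5723 bp downstream of the hairpins. On chromosome 4 the genes Mir429 (156053905 to 156053987) and Mir200a (156054896 to 156054985) each had 18.7-fold (15.9 to 21.8) and Mir200b (156055681 to 156055750) had 10.6-fold (8.51 to 12.9). The 3 genes lie in 1 region of 4351 bp with 7 summits, outside coding genes and over 3 kb from the nearest coding end, that of Ttll10.

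A much stronger summit lay upstream of the chromosome 4 cluster. It reached 62.3-fold (57.1 to 67.7), 4165 bp upstream of Mir200b and 113 bp from the annotated start of the lncRNA gene Gm13648, which runs on the same strand as the hairpins. Its region is 156058397 to 156060708. The promoter window of Gm13648, from 250 bases before to 50 after its start, is printed because this is the strongest called summit within 10 kb of the cluster. It was searched on both strands for CACCTG, the E-box that the Zeb1 and Zeb2 repressors of the Mir200 genes are known to bind, and for TGANTCA, the AP-1 motif, which reads the same on both strands. These motifs cannot contain each other. The window is chr4:156059753-156060052 on GRCm38.p6, minus strand, from RefSeq, with matches in capitals.
Gm13648: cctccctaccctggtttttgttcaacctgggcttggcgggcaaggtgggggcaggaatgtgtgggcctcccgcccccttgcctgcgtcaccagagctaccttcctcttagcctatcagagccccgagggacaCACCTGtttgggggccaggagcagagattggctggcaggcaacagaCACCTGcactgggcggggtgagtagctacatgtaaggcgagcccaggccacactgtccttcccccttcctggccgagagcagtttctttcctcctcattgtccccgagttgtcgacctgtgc
Both matches are CACCTG on the printed strand, upstream of the start, and TGANTCA is not in this window. CACCTG was found in 20.5% of all 31396 promoter windows, so a match is common, and says nothing about binding. Over the 115 promoter windows that overlap a region at a miRNA gene, TGANTCA was found in 3 (2.61%, 0.891 to 7.39%), against 5.99% of the 15127 windows that overlap any called region and 7.84% of all windows. The interval includes the 5.99% but not the 7.84%. CACCTG was found in 17.4% (11.5 to 25.3%) of the 115 and in 19.9% of the 15127. These windows are gene promoters, and the sequence at the miRNA summits themselves was not searched.

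Mir21a had a modest value at its hairpin and very strong summits around it. The gene lies on chromosome 11 (86584067 to 86584158), inside Vmp1, which encodes a membrane protein of autophagy, 209 bp from an outer end of that gene and 39076 bp from the nearest annotated coding start. Within 1000 bp its strongest summit was 8.12-fold (6.34 to 10.2). At 3096 bp upstream a summit reached 69.9-fold (64.4 to 75.7), the highest within 10 kb of any gene in the epithelial list. A neighbouring one, 2831 bp upstream, reached 61.3-fold (56.2 to 66.8). In human cells the upstream promoter of this miRNA is known to be bound by AP-1. On the downstream side the highest was 50.1-fold (45.5 to 55.0), 3445 bp away. All of these belong to 1 region of 15749 bp with 22 summits, the 13th widest of the 111280 autosomal regions.

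Mir31 was the exception of the list. The gene (chromosome 4, 88910557 to 88910662) had no summit within 1000 bp, and the nearest was 6.96-fold (5.32 to 8.94), 2062 bp upstream. Within 10 kb 5 summits were called, the highest of 8.93-fold (7.06 to 11.1), and none reached 20-fold. It is the epithelial gene with the lowest value in the wide window.

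**Figure D4:**
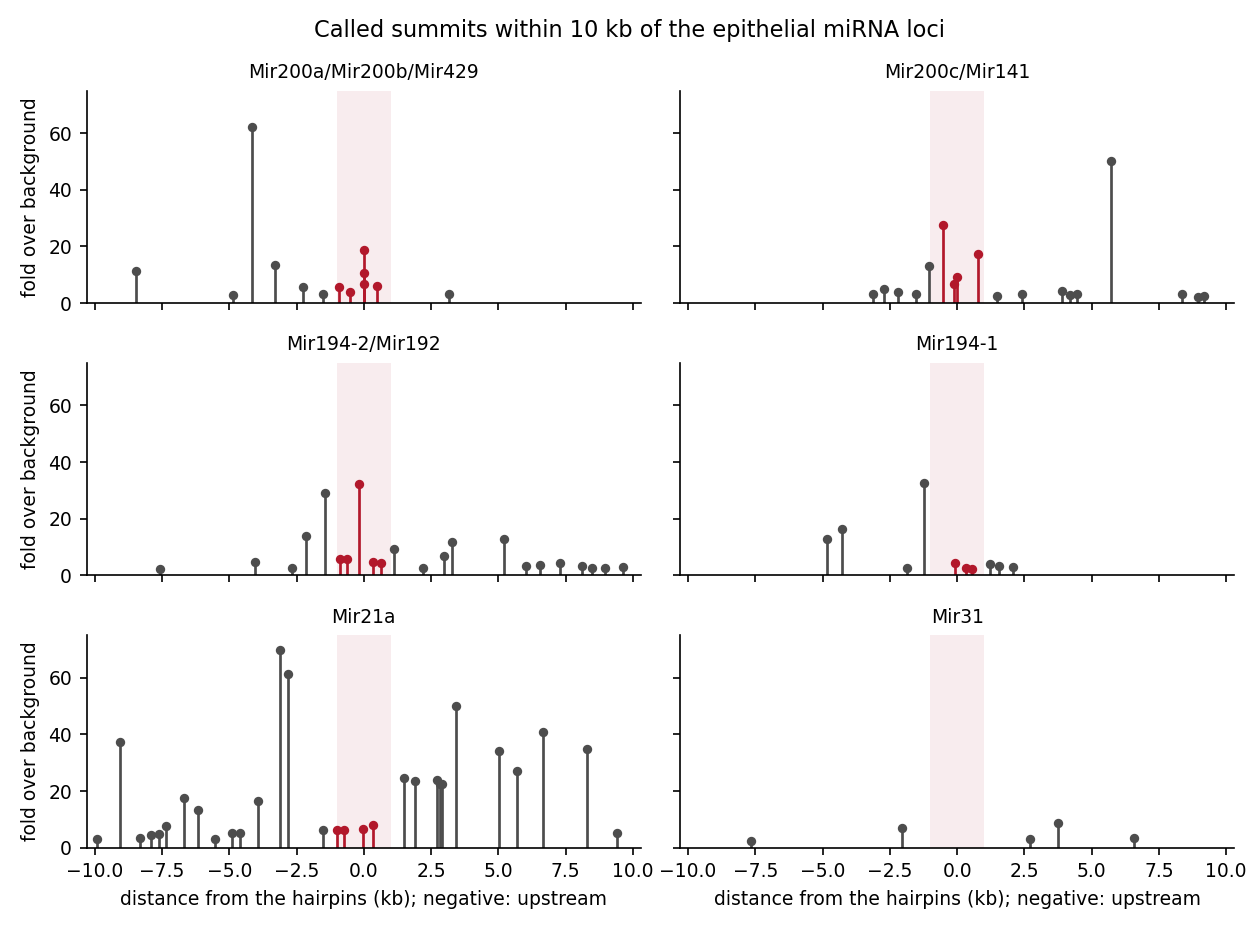
Fold over background (y axis) of every called summit within 10 kb of the 6 epithelial loci, by distance from the outermost hairpin ends in kb (x axis, negative upstream), with summits between the hairpins drawn at 0 and those within 1 kb in red. Mir21a has its highest summits, 61.3 and 69.9-fold, about 3 kb upstream, the Mir200a, Mir200b and Mir429 cluster has 62.3-fold 4165 bp upstream, and Mir31 has none above 8.93-fold.

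Most genes of striated muscle had no summit close by. Mir1a-1, Mir1a-2, Mir1b, Mir133a-1, Mir133a-2, Mir133b and Mir206, which act in striated muscle, had no summit within 10 kb. The nearest were 33985 to 58189 bp away. Mir208a and Mir208b, encoded in the cardiac myosin genes Myh6 and Myh7, had none within 1000 bp, and Mir208a had 1 of 7.77-fold at 9506 bp. Mir499, encoded in the myosin gene Myh7b, had 2.78-fold (1.81 to 4.12), and differed from the others in the wider surroundings, with 9 summits in 9 regions within 10 kb, up to 22.7-fold (19.7 to 26.1). A summit was thus called at 1 of these 10 genes, against 27.1% of all miRNA genes. Several of the 10 are neighbours, and Mir1a-2 lies within the bounds of Mir1b, so they stand for fewer loci than genes.

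The smooth muscle pair on chromosome 18 differed from these. Mir145a had 8.23-fold (6.44 to 10.4), the highest value of the muscle list, and its neighbour Mir143 had none within 1000 bp. Within 10 kb of the pair 5 summits were called, among them 28.6-fold (25.2 to 32.4) and 28.2-fold (24.7 to 31.9), at 9689 and 4000 bp. In the colon these miRNAs are known mainly from smooth muscle and fibroblasts. The fibroblast collagen genes Col1a2 and Col3a1 had no summit at an end, and no marker of smooth muscle was looked at. Which cells the summits of this pair come from was not tested.

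In the neuron list the 3 genes above 20-fold stood apart from the rest. Mir219a-1, known from oligodendrocytes, had 21.9-fold (18.9 to 25.3), 303 bp from the start of Ring1, a Polycomb gene used in most cells. Mir132 and Mir212, which respond to CREB in neurons, shared a summit of 21.2-fold (18.3 to 24.5) on chromosome 11 (75173388 to 75173747 for both hairpins). They lie over 2 kb from the nearest coding end, that of Ovca2. The region of 1982 bp had 3 summits.

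The other 5 neuron genes with a summit were weak. They had 2.32-fold at Mir9-3, 3.01-fold at Mir138-2, 5.10-fold at Mir124a-3, 5.45-fold at Mir129-1 and 6.49-fold at Mir9-1, all members of families that are abundant in brain. The 12 without one were Mir124a-1, Mir124a-2, Mir9-2, Mir128-1, Mir128-2, Mir129-2, Mir137, Mir138-1, Mir153, Mir219a-2, Mir218-1 and Mir218-2. Of these, 10 had no summit within 10 kb. Copies of a family could thus differ, as Mir124a-3 and Mir9-1 had summits and Mir124a-1 and Mir9-2 had none.

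The epithelial list also had the highest median of these lists in a wider window. A summit of any height lay within 10 kb of 10 of 10 epithelial, 4 of 12 muscle and 10 of 20 neuron genes, against 67.0% of all miRNA genes. Within 10 kb the median of the strongest summit was 50.1-fold for the epithelial list, 0 for the muscle list and 2.49-fold for the neuron list, against 6.55-fold over all miRNA genes. A summit of at least 20-fold lay within 10 kb of 9 of 10 epithelial, 3 of 12 muscle and 3 of 20 neuron genes, against 31.0% of all miRNA genes. By locus these were 5 of 6, 2 of 7 and 2 of 19. The median number of regions within 10 kb was 5.50, 0 and 0.500 in that order of lists, against 1.00 over all miRNA genes. The wide window also takes in promoters of neighbours, such as the 50.1-fold summit beside the Phb2 start.

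**Figure D5:**
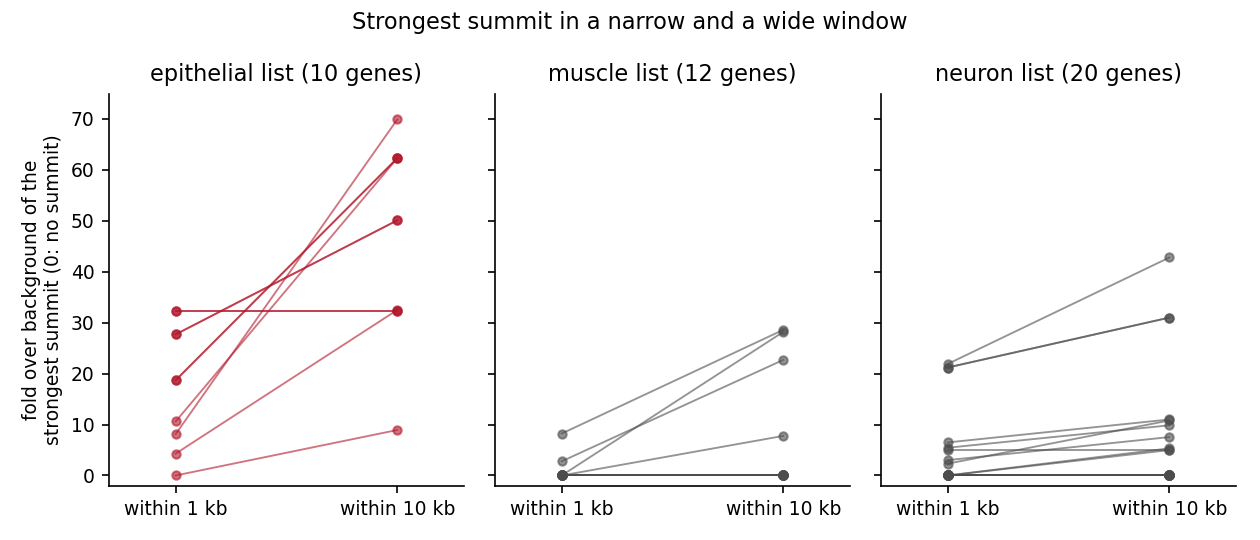
Fold of the strongest summit (y axis, 0 without a summit) within 1 kb and within 10 kb of each gene of the epithelial (red), muscle and neuron lists (grey), a line joining the values of a gene. Of the 10 epithelial genes 9 are at 32.2-fold or above in the wide window, while most muscle genes and 10 of the neuron genes remain at 0.

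Other epithelial miRNAs differed from each other within 1000 bp. Mir203, which limits the growth of stratified epithelium, had 27.1-fold (23.8 to 30.8), in the range of the Mir200 genes. Mir205, a miRNA of squamous epithelium, had none within 1000 bp and 17.4-fold at 2731 bp. That summit lay 51 bp from the annotated start of its host lncRNA gene Mir205hg. Among 10 let-7 genes, which restrain growth and are used in many differentiated tissues, 3 had a summit, close to the 27.1% of all miRNA genes. Mirlet7i was the strongest with 22.0-fold, Mirlet7b and Mirlet7c-2 shared 3.83-fold, and Mirlet7a-1, Mirlet7a-2, Mirlet7c-1, Mirlet7d and Mirlet7e were among the 7 without. Within 10 kb, 8 of the 10 had a summit of at least 20-fold, against 31.0% of all miRNA genes.

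The Mir17 and Mir25 clusters, which promote proliferation, had a summit at 3 of 9 genes (33.3%), against 27.1% of all miRNA genes. Mir17, Mir18 and Mir19a shared a 3.01-fold summit, and Mir20a, Mir19b-1, Mir92-1, Mir106b and Mir93 were among the 6 without. Within 10 kb all 9 genes, which form 2 loci, had a summit of at least 20-fold, against 31.0% of all miRNA genes. Upstream 38.3-fold (34.2 to 42.6) was called 2785 bp from the first hairpin of the Mir17 cluster, and 59.1-fold (54.1 to 64.5) lay 5380 bp from Mir106b, which sits inside the replication gene Mcm7. The p53-induced Mir34b and Mir34c shared 4.87-fold (3.53 to 6.56), and Mir34a had no summit within 1000 bp.

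Lists of leukocyte genes, of genes of endothelium, liver and islets and of inflammation genes had a summit at 1 of 4, 1 of 5 and 1 of 4 matched members, near the 27.1% of all miRNA genes. Of the 4 matched leukocyte genes only Mir150 had one, with 3.25-fold (2.18 to 4.67) within 1000 bp and 68.5-fold within 10 kb. Mir155, Mir181a-1 and Mir181b-1 had none. Mir142a of this list was not matched by name, and the gene annotated as Mir142 had none. Of 5 genes of endothelium, liver and islets only Mir375 had one, with 12.8-fold (10.5 to 15.4). Mir375 is known from islets and from gut endocrine cells. Mir126a, Mir126b, Mir122 and Mir483 had none. Of the 4 matched inflammation genes only Mir21a had a summit, and Mir146b, Mir155 and Mir31 had none, although Mir146b had 29.8-fold within 10 kb. Mir146a of this list was not matched by name, but the gene annotated as Mir146 had a summit of 3.01-fold (1.99 to 4.39) within 1000 bp. None of 10 genes of pluripotent cells had one, among them Mir290a, Mir291a, Mir293, Mir294 and Mir302a, but these 10 form only 2 loci. Within 10 kb, however, 5 of these 10 had a summit of at least 20-fold, against 31.0% of all miRNA genes. These 5 are 1 of the 2 loci, the Mir302a cluster inside Larp7, and share a summit of 61.8-fold. Wide-window values of this height were therefore not particular to the epithelial list.

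The strongest values of all miRNA genes came from outside these lists. Near coding ends they were Mir5627 (82.7-fold, 76.7 to 89.0) beside Dnajb9, Mir1938 (77.7-fold) inside Ifrd1, Mir5133 (76.5-fold) inside Glce, Mir7009 (73.4-fold) inside Anxa5 and Mir3569 (70.7-fold) beside Zbtb32. The first 4 lie 15 to 378 bp from an annotated coding start. The region at Mir1938 spans 21640 bp with 46 summits and is the 5th widest on the autosomes.

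Away from coding ends the highest value, 76.4-fold (70.7 to 82.5), was that of Mir7240, 920 bp upstream of the hairpin and inside Mast3, which encodes a kinase. Mir210, the miRNA best known for its rise in hypoxia, followed with 71.3-fold (65.8 to 77.2). Its summit was 416 bp upstream of the hairpin (chromosome 7, 141221384 to 141221493), outside coding genes and with the nearest coding start 5524 bp away. Mir29a, which restrains collagen genes, had 48.0-fold (43.5 to 52.8), 701 bp downstream of a hairpin that lies 103670 bp from the nearest coding end.

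The other 7 of the 10 strongest had 35.7 to 57.0-fold. Mir5620 (57.0-fold) lies 55 bp from an annotated inner start of its host Clcn4, so being away from the outer ends does not mean being away from a promoter. The remainder were Mir7687 in Gse1 (49.4-fold), Mir7028 in Tchp (45.1-fold), Mir7655 in Mllt10 (41.3-fold), Mir6976 in Srf (40.0-fold), Mir1893 in Epc1 (36.4-fold) and Mir6236 outside coding genes (35.7-fold). The region at Mir6236 was by far the narrowest of the 10, with 378 bp against 1212 to 5298 bp. The part of read mapping in this call was not tested. Over all genes away from coding ends, chromosome 18 left out, an annotated inner start within 1000 bp was found for 15, of which 7 had a summit. None was found for 947, of which 201 had a summit (21.2%, 18.7 to 23.9%). Starts missing in places on other chromosomes may put some genes wrongly among the 947.

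Annotated starts of lncRNAs named as miRNA hosts did not stand apart from lncRNA starts in general. A summit lay within 1000 bp of 5 of 16 such starts (31.2%, 14.2 to 55.6%), against 30.6% of all annotated lncRNA starts. The 16 starts belong to 11 genes, of which 5 had a summit at a start, and 4 of the starts without one are neighbouring starts of Mir670hg. The highest was 72.2-fold (66.7 to 78.1), 89 bp from the start of Mir22hg on chromosome 11. Mirc35hg had 48.8-fold, one of the starts of Mir100hg 18.5-fold, Mir205hg 17.4-fold and Mir99ahg 4.06-fold. The hosts Mir1a-1hg and Mir9-3hg, named for muscle and neuron genes, had none, and neither had Mir17hg, Mir155hg, Mir217hg and Mir670hg. The start annotated for Mir17hg lies within the Mir17 cluster itself, downstream of the 38.3-fold summit. These hosts were picked by name after values had been seen.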

How the data were processed

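The data were 1 narrowPeak list for 4 ATAC-seq libraries, 1 per group. Per the submitters' processing notes, Bowtie2 and MACS2 were used with the build mm10, and no version is given. In the deposited score the −log10 q is multiplied by 10 and its decimals dropped. The deposited fold is the peak caller's linear ratio to background at each summit, and the deposited −log10 p and −log10 q values are also the authors'. The sources used here give neither thresholds nor duplicate handling, nor which libraries were pooled. In 100% of records the fold times 1 constant was a whole number (tolerance 0.01), which gave the pileups. Gene bounds, starts and strands came from RefSeq tables on GRCm38.p6, of which mm10 is the browser name. Starts and strands were missing on chromosome 18 and in places on other chromosomes. The deposited offset gave each summit's base. The tables hold no exons. Genes within 10 kb of each other were joined into loci. The 92 miRNA genes on X were outside the rule. Of 91 symbols in 11 lists 87 were matched, and Mir142a, Mir146a, Mir223 and Mir292a were left out of the lists. Genes annotated as Mir142 and Mir146 were counted among all miRNA genes only. Members and lists were chosen with earlier results of these data known. Named genes were all members of the epithelial, muscle and neuron lists, the 2 strongest and up to 5 without a summit of the others, and of all miRNA genes the 10 strongest away from coding ends and the 5 strongest near one. The genes beside the 1000 bp limit, the motifs, hosts, locus distances, 20-fold level and 10 kb window were chosen after values were seen. Python 3.11.15, pandas 2.3.3 and scipy 1.17.1 were used, and the summit search was tested on simulated data. Alternatives changed the window, the q threshold, overlap in place of summits, the unit of counting and the distance to coding ends.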

Additional observations from a re-analysis of the deposited data

How the results depend on the processing

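Of 80 alternative values over 15 results, 47 stayed within their limits and 33 moved. No paired analysis was possible because each group has 1 library and the list holds no value per library, and no library could be left out for the same reason. The 345 regions became 600 and 1307 with windows of 2000 and 5000 bp and 210 with a −log10 q of at least 10. The 27.1% of miRNA genes with a summit became 21.7%, 37.2% and 55.1% with windows of 500, 2000 and 5000 bp, 67.0% with 10000 bp (added after the data were seen), 19.2% with the stricter q, 30.3% by overlap and 30.8% by locus. Near coding ends the share became 85.4% with 5000 bp, and 29.5% when genes inside a coding gene were included. Away from coding ends the 21.6% became 16.3%, 32.4% and 50.7% with the 3 planned windows, 13.4% with the stricter q, 24.9% by overlap and 24.4% by locus. The median of genes with a summit became 12.6-fold with 5000 bp, 12.9-fold with the stricter q and 12.8-fold by overlap. For the epithelial list the count was 9 or 10 of 10 under every window, q and overlap setting, and 5 of 6 by locus. Its median was 9.16-fold with 500 bp, 26.1-fold with 2000 bp, 32.2-fold with 5000 bp and 50.1-fold with 10000 bp, and was 27.7-fold by overlap and 13.4-fold by locus. The muscle count was 1 with the stricter q and 4 with 10000 bp, and the neuron median was 2.49-fold with 10000 bp. Without clusters of 10 or more genes, also added later, the share inside hosts without a summit was 15.5% in place of 8.42%, and that of genes numbered under 1000 was 21.6% in place of 15.4%. In every setting run on the lists the epithelial median was above the muscle and neuron medians. Wider windows take in more sequence, which raises shares by construction. Pileups near the lowest of 17 have wide intervals, so summits of 2 to 3-fold are the least certain.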

Other observations

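The 3 clusters with 10 or more miRNA genes were without any summit at an end. They are the cluster of 72 genes inside Sfmbt2 on chromosome 2 (10466663 to 10518279), and on chromosome 12 those of 16 genes around Rtl1 and of 39 genes from Mir379 to Mir3072. Together 0 of 127 genes had a summit, but these form only 3 loci. Neighbours are not independent, so an interval over the 127 would be too narrow. Of miRNA genes without a neighbour within 10 kb, 245 of 807 had a summit (30.4%, 27.3 to 33.6%). The chromosome 12 genes belong to an imprinted domain known from embryo, placenta and brain, and the Sfmbt2 genes to one known from placenta. Many genes of the Sfmbt2 cluster are near-identical copies, and the part that read mapping plays in their lack of calls was not tested.

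Genes with a number under 1000 in the symbol, mostly the earlier named and better known miRNAs, were compared with later ones. Away from coding ends the summit counts were 64 of 415 (15.4%, 12.3 to 19.2%) and 140 of 536 (26.1%, 22.6 to 30.0%), but without the large clusters above they were 64 of 296 (21.6%, 17.3 to 26.7%) and 140 of 529 (26.5%, 22.9 to 30.4%), with overlapping intervals. Near coding ends they were 27 of 46 (58.7%, 44.3 to 71.7%) and 64 of 93 (68.8%, 58.8 to 77.3%), with overlapping intervals. The split, and the count without clusters, were chosen after the data were seen. On the X chromosome, which the choice of regions left out, 5 of 92 miRNA genes had a summit (5.43%, 2.34 to 12.1%), with 2.20 to 9.97-fold. No other genes or moved positions on X were counted, and clusters on X were not set apart. Whether the low share is particular to miRNA genes was therefore not tested.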
